A study of Xenopus tropicalis with 4 samples.

Results

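The genes of the cell division machinery were followed in the ectoderm of Xenopus tropicalis gastrulae: A, B, D and E cyclins and their kinases, mitotic kinases, centromere and kinetochore proteins, the spindle checkpoint, the anaphase-promoting complex, condensin and cohesin subunits, and kinesins. They were taken by symbol, and the pattern matched 126 of the 28850 genes in the files. The A, B and E cyclin genes ccna1, ccnb1.2 and ccne1 were left out by the rule, which left 123 members. All 123 are protein coding in the RefSeq table. The symbols also brought in 2 genes of other function, aurkaip1, a mitochondrial protein named for its binding to aurora A, and ccnb1ip1, a ubiquitin ligase of meiotic recombination in mammals. Others are also known outside mitosis, such as mad2l2, a subunit of a DNA translesion polymerase, cenps and cenpx, partners of a Fanconi anaemia protein, and cenpj, a centriole protein.

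Entry into mitosis is driven by cyclin B bound to Cdk1, which Wee kinases hold back and Cdc25 phosphatases release. Kinesins, aurora and polo-like kinases then build the spindle, condensin compacts the chromosomes, and cohesin keeps sister chromatids together until every kinetochore is attached. The spindle checkpoint holds Cdc20 in check until that point, after which the anaphase-promoting complex marks cyclin B and securin for destruction. The frog embryo is a textbook system for this cycle, since its stored transcripts serve rapid cleavages that run without gap phases until the midblastula.

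Poly(A) RNA was sequenced from explants of the animal cap, the prospective ectoderm, at Nieuwkoop-Faber stage 10.5. Wild-type embryos were injected at the 1-cell stage with a morpholino oligonucleotide (MO), either a control or one against Foxh1, at a dose of 22.5 ng, and cultured at 25 °C. Each group held 2 libraries. An MO acts on translation or splicing of an RNA and need not lower its level. Foxh1 is a forkhead factor that carries Nodal signals with Smad2, and the comparison asks what the ectoderm expresses when Foxh1 is targeted. The labels give neither the number of explants per library nor their clutch, so the p-values given here rest on the spread between these libraries, which may be technical. For each gene that spread was moderated toward that of all tested genes, with 2 residual and 10.5 prior degrees of freedom.

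Library depth was 25632619 to 29800530 expected counts, with 17863 to 18244 genes detected. The foxh1 transcript itself stood at 79.3 and 71.2 CPM (TMM-scaled counts-per-million) in the controls and at 264 and 174 CPM in the Foxh1 MO libraries (log2 fold change 1.54, SE 0.19, edgeR adjusted p = 0.000431), so directions below are those of the libraries labelled Foxh1 MO. Surface ectoderm markers were abundant, with a summed level of 2597 to 2794 TPM (transcripts-per-million, a level per length) in the controls and 3008 to 3445 TPM in the Foxh1 MO libraries, and 5 of 9 rose. Of the 5 neural ectoderm markers in the files 4 fell. All 5 summed to 1505 to 1617 TPM in the controls and 1007 to 1024 TPM in the Foxh1 MO libraries. That sum includes the geminin gene gmnn, which was not called and is also counted below among regulators of Cdk1. It stood at 611 and 479 TPM in the controls and at 388 and 455 TPM in the Foxh1 MO libraries. Sums of 6 mesoderm and organizer genes were 6.44 to 10.8 TPM, of 6 endoderm genes 11.96 to 19.9 TPM and of 5 germ plasm genes 72.04 to 87.2 TPM, with 1, 1 and 0 falls by edgeR. By the same test 4.17% of all tested genes rose and 4.07% fell. The part of these marker shifts in the values below was not tested, and in bulk RNA fewer cells of a type cannot be told apart from less RNA per cell.

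Cell division transcripts were abundant in these caps. Members took 1.32% and 1.21% of the expected counts in control MO 1 and 2, and 1.26% and 1.34% in Foxh1 MO 1 and 2. They summed to 11491 and 10634 TPM in control MO 1 and 2 and to 10966 and 11452 TPM in Foxh1 MO 1 and 2. The groups overlapped in that share of counts and in that sum of TPM. In CPM, which serves to compare groups, the tested members summed to 12561 and 12672 in the controls. In the Foxh1 MO libraries they summed to 13125 and 12932 CPM, without overlap. Of all tested genes taken singly, 50.8% did not overlap either. The roles did not move alike within these sums. Mitotic kinesins went from 1898 and 1836 CPM to 2248 and 2235 CPM. The role of the anaphase-promoting complex and Cdc14 went from 1542 and 1544 CPM to 1411 and 1476 CPM. The filter on low counts was passed by 116 of the 123 members, of which 89 lay above the median level of all tested genes (15.8 TPM) and 27 among the highest 10%. The 7 that did not pass were anapc13.2 (0 counts in every library, which allows at most 0.0956 to 0.113 CPM at 3 counts), cdc20b, smc6, kif3c, kif28p, kif21b and kif1a, the last with 5 to 15 counts. Such limits cover counting error only.

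**Figure D1:**
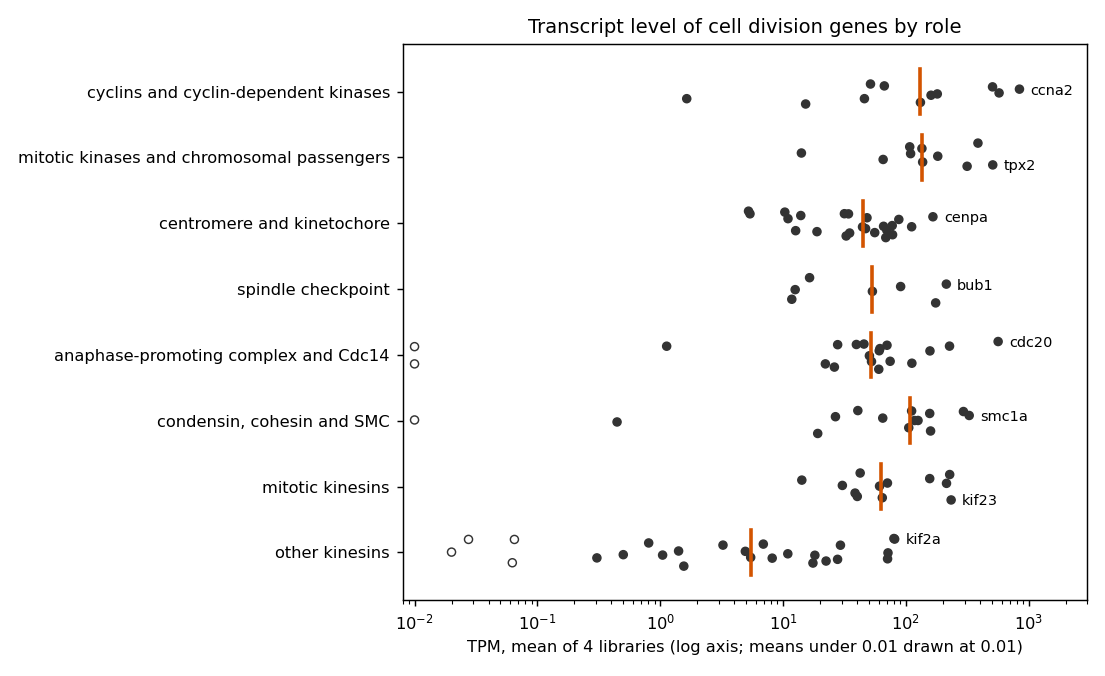
Level of each of the cell division genes in 8 roles, as TPM averaged over 4 libraries on a log axis, with 1 point per gene, open where the gene was too low to test, and a bar at the median of the role. Among the members the cyclin gene ccna2 led at 839 TPM, and the role of other kinesins had the lowest median, 5.45 TPM.

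Among the members, the highest levels belonged to A, B and E cyclins, cdc20 and tpx2. The left-out cyclin B gene ccnb1.2 stood above them all, with a mean of 2071 TPM, and the left-out ccne1 averaged 479.7 TPM. The A-type cyclin gene ccna2, which serves S phase and mitotic entry, averaged 839 TPM over the 4 libraries. It was followed by the mitotic cyclin gene ccnb2 (573 TPM), by cdc20, the activator of the anaphase-promoting complex (562 TPM), by tpx2, which activates aurora A on the spindle (509 TPM), and by ccne2, a partner of Cdk2 at S phase entry (507 TPM). The D cyclin genes ccnd1 and ccnd2, which answer growth signals, stood lower, at 51.4 and 15.3 TPM. A kinase partner of D cyclins, cdk6, averaged 1.64 TPM, although its relative cdk4 reached 131 TPM, above cdk2 (66.6 TPM) and cdk1 (45.9 TPM). Among kinesins the mitotic ones had a median of 62.6 TPM and the others 5.45 TPM. Where 4 values are given for a gene below, they stand for control MO 1, control MO 2, Foxh1 MO 1 and Foxh1 MO 2 in that order, and they are CPM, which compares groups and not genes. The TPM values are levels per transcript length, and members other than those of the naming rule were named after their values were seen.

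Few of these genes were called, and the calls went in both directions. Of the 116 tested members, 4 rose (kif4a, anapc13.1, kif2c and kif14) and 6 fell (cdk1, cdk6, cdc23, cdc14b, kif27 and smc1b), by edgeR's quasi-likelihood test with p-values adjusted after Benjamini and Hochberg across the 13756 genes tested (threshold 0.05). That is 8.62% of members against a background of 8.24% of all tested genes, with 4.17% of all genes higher and 4.07% lower, so the share called among members is near the background. This background was not matched for level, and the median level of members lay at percentile 76.4 of all tested genes. The log2 fold change was positive for 69 of 116 members (59.5%) and for 50% of all tested genes. The median log2 fold change of members was 0.05, beside -0.00019 over all tested genes, and the median absolute change was 0.19 beside 0.21. An unadjusted p under 0.05 was met by 31 members (26.7%) and by 21.6% of all genes. Of the 106 members not called, 102 had a 95% interval of the fold change that stayed within 2-fold in either direction, and 71 within 1.5-fold. Leaving out a library keeps only 1 in its group, so the spread between libraries then comes from the other group alone. A call from such a fit rests on 1 library without a replicate. The count of calls rested on single libraries. Without control MO 1 it was 2 higher and 4 lower, without control MO 2 it was 2 and 2, without Foxh1 MO 1 it was 12 and 13, and without Foxh1 MO 2 it was 4 and 5. The background moved too, to 7.88%, 5.87%, 17.1% and 5.9% of all tested genes. The 16 members called without Foxh1 MO 1 and not with all libraries were tpx2, wee1, incenp, birc5l, cenpf, spc24, mad2l1, anapc2, anapc5, anapc10, kif14l, kif18b, kif23, kif1c, kif3b and kif24. Without Foxh1 MO 2 they were ncapd2 and kif13a, and without control MO 1 mad2l1. With no filter on low counts 7 members were higher and 9 lower, 13.1% of 122 members beside 7.81% of 20537 genes. That background takes in many genes too low to pass the filter, which 13756 passed, so these shares do not compare genes of like level.

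**Figure D2:**
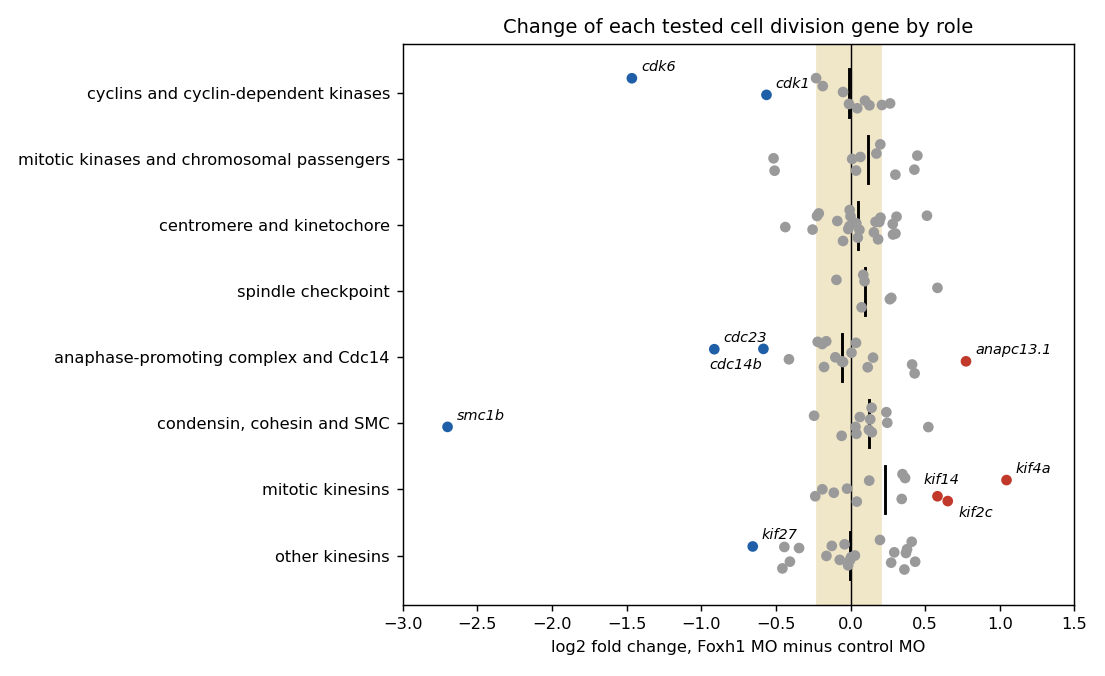
Log2 fold change (Foxh1 MO minus control MO) of the 114 tested cell division genes that fall in a role, with 1 point per gene, red where called higher, blue where called lower and grey where not called. Black bars are role medians and the shaded band spans the quartiles of all tested genes. The called genes lie outside the band, between -2.70 for smc1b and 1.05 for kif4a, and the role medians lie between -0.06 and 0.23.

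Among cyclins and their kinases the kinases cdk1 and cdk6 fell, and none of the member cyclins was called by edgeR. Of the cyclins that the rule left out, ccnb1.2 (log2 fold change 0.11) and ccne1 (-0.07) were not called. The left-out A-type cyclin gene ccna1 was called. For ccna1 the values were 116 and 90.2 CPM in the controls and 66.98 and 69.3 CPM in the Foxh1 MO libraries (log2 fold change -0.60, edgeR adjusted p = 0.0302). Without control MO 1 its log2 fold change was -0.40 and the call was lost (adjusted p = 0.328). Of 11 tested genes, 2 fell, 0 rose and 9 did not pass, and the median log2 fold change was -0.01. The share called was 18.2%, beside 8.24% of all tested genes. The transcript of cdk1, the kinase that drives mitotic entry, was at 25.4 CPM in control MO 1, 25.3 CPM in control MO 2, 16.4 CPM in Foxh1 MO 1 and 17.99 CPM in Foxh1 MO 2. The groups did not overlap, and the log2 fold change was -0.56 (SE 0.15, edgeR adjusted p = 0.0331), a 1.48-fold lower level. That call was close to the threshold. It was kept without Foxh1 MO 2 and missed when any of the other libraries was left out, with adjusted p of 0.0896 (control MO 1), 0.0991 (control MO 2) and 0.0533 (Foxh1 MO 1), and in the authors' deposited table cdk1 has a false discovery rate of 0.0594. The gene cdk6 read 5.26 and 9.64 CPM in the controls and at 2.701 and 2.68 CPM in the Foxh1 MO libraries. Its control libraries differed from each other more than its Foxh1 MO libraries did, yet both control values lay above. The log2 fold change was -1.46 (SE 0.28, edgeR adjusted p = 0.00694), and it was -0.97 without control MO 2 and -1.84 without control MO 1, called in each case.

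The member cyclins that pair with Cdk1 did not pass the test. Values for ccnb2 were 322 and 349 CPM in the controls and 294 and 297 CPM in the Foxh1 MO libraries, a log2 fold change of -0.19 (95% interval -0.47 to 0.10). The ccna2 transcript stood at 521 and 487 CPM in the controls and at 569 and 598 CPM in the Foxh1 MO libraries, a log2 fold change of 0.21 (95% interval -0.07 to 0.49). Neither passed the test, though in both genes the groups did not overlap, which 50.8% of all tested genes share. For ccne2 the 4 libraries read 355, 353, 356 and 402 CPM, and for its kinase cdk2 they read 46.9, 42.4, 51.0 and 56.3 CPM (log2 fold change 0.27, not called). Levels of ccnb1 (77.9 to 85.0 CPM), ccnb3 (108 to 129 CPM) and cdk4 (203 to 242 CPM) overlapped between the groups.

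Mitotic kinases and chromosomal passengers held 10 tested genes, of which 0 were called by edgeR. An unadjusted p under 0.05 was met by 5 of them (50%), beside 21.6% of all tested genes. The gene tpx2 stood at 602 and 693 CPM in the controls and at 502 and 404 CPM in the Foxh1 MO libraries. Its groups did not overlap, but the log2 fold change of -0.52 (SE 0.15) missed the threshold (edgeR adjusted p = 0.0527). It passed in the authors' deposited table, with a false discovery rate of 0.0343, and under 6 of 7 other settings that kept all libraries, but with a library left out it passed only without Foxh1 MO 1. Incenp, the scaffold that docks aurora B on centromeres, read 366 and 424 CPM in the controls and 510 and 569 CPM in the Foxh1 MO libraries (log2 fold change 0.45, SE 0.14, edgeR adjusted p = 0.0705). Values for birc5l, a survivin of the same passenger complex, were 66.0, 63.1, 78.4 and 95.3 CPM across control MO 1 and 2 and Foxh1 MO 1 and 2, a log2 fold change of 0.43 that was not called. Without Foxh1 MO 1 it was 0.56 and was called, and without Foxh1 MO 2 it was 0.27. Its near namesake birc5 read 30.2, 30.9, 30.7 and 33.3 CPM, and how reads were split between such copies is uncertain. The passenger kinase gene aurkb (75.5, 84.8, 95.3 and 88.9 CPM) and aurka (95.7, 111, 130 and 103 CPM) were not called either. The polo-like kinase gene plk1, needed for spindle poles and mitotic exit, was at 231 and 265 CPM in the controls and 307 and 304 CPM in the Foxh1 MO libraries (log2 fold change 0.30, edgeR adjusted p = 0.218). Of the inhibitory kinases of Cdk1, wee1 read 69.1, 76.8, 61.7 and 40.8 CPM (log2 fold change -0.51, not called) and wee2, the oocyte form in mammals, 90.2, 99.3, 111 and 83.4 CPM. Foxh1 MO 2 had the low wee1 value: without Foxh1 MO 1 its log2 fold change was -0.84 and was called, and without Foxh1 MO 2 it was -0.25 and was not.

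Centromere and kinetochore genes gave no call. All 23 were tested, 0 were called by edgeR, and the median log2 fold change was 0.05. An unadjusted p under 0.05 was met by 3 (13%), beside 21.6% of all tested genes. The gene cenpa, for the histone H3 variant that marks centromeres, read 120, 105, 97.2 and 115 CPM, with groups that overlapped. The Ndc80 complex, which holds the microtubule end, has 4 subunits that were all detected. Spc25 read 48.8, 44.8, 45.0 and 52.5 CPM and ndc80 84.1, 91.5, 91.7 and 77.9 CPM, both with overlapping groups. Those of nuf2 were 50.7, 49.1, 58.7 and 64.9 CPM (log2 fold change 0.31, edgeR adjusted p = 0.209), and those of spc24 were 13.99, 13.1, 18.5 and 20.2 CPM (edgeR log2 fold change 0.51 with SE 0.15 and adjusted p = 0.0583). At the other end lay cenpf, a large protein of the outer kinetochore, with 333 and 326 CPM in the controls and 270 and 217 CPM in the Foxh1 MO libraries (log2 fold change -0.44, edgeR adjusted p = 0.0877). Values not called ranged from -0.44 to 0.51 on the log2 fold change scale.

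Spindle checkpoint genes gave 0 calls by edgeR among 7 tested, with 1 unadjusted p under 0.05 (14.3%, beside 21.6% of all tested genes). The kinase gene bub1 read 349, 342, 365 and 363 CPM (log2 fold change 0.07, 95% interval -0.21 to 0.35). Its partner bub3 read 165 and 162 CPM in the controls and 195 and 201 CPM in the Foxh1 MO libraries, a log2 fold change of 0.27 that was not called. The transcript of mad2l1, whose protein binds and holds Cdc20, read 6.41, 5.03, 8.03 and 9.13 CPM (edgeR log2 fold change 0.58 with SE 0.19 and adjusted p = 0.0892). Per transcript length the checkpoint components were unequal: bub1 averaged 213 TPM, mad1l1 90.5 TPM, mad2l1 12.5 TPM and bub1b, the BubR1 kinase gene, 11.8 TPM.

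The role of the anaphase-promoting complex also holds its activator cdc20 and the Cdc14 phosphatases, and its genes were called in both directions. Of 17 tested genes of this role, 1 rose, 2 fell and 14 did not pass, and the median log2 fold change was -0.06. The rise was that of the subunit gene anapc13.1, and the falls were those of the subunit gene cdc23 and the phosphatase gene cdc14b. The share called was 17.6%, beside 8.24% of all tested genes. Cdc23, a scaffold subunit built of tetratricopeptide repeats, read 31.0 and 30.9 CPM in the controls against 16.1 and 16.8 CPM with the Foxh1 MO. The means were 30.9 ± 0.137 and 16.4 ± 0.539 CPM (SD, n = 2), a 1.88-fold lower level (log2 fold change -0.91, SE 0.14, edgeR adjusted p = 0.00227) with close replicates, and it stayed called without each library in turn (-0.96 to -0.88). The other repeat subunits were not called: cdc27 read 229, 237, 216 and 200 CPM, cdc16 55.6, 49.8, 56.0 and 61.0 CPM, and anapc7 69.4, 66.3, 59.7 and 66.8 CPM. The scaffold gene anapc1 read 197, 200, 200 and 200 CPM (95% interval of the log2 fold change -0.28 to 0.29).

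The small subunit gene anapc13.1 stood at 4.62 and 5.24 CPM in the controls and at 8.03 and 8.83 CPM in the Foxh1 MO libraries (log2 fold change 0.77, SE 0.19, edgeR adjusted p = 0.0242). Leaving out control MO 1 or Foxh1 MO 2 ended the call, with adjusted p of 0.0793 and 0.108. Its counts were low, 145 to 234 per library, and its mean transcript length in the files shifted from 492 and 482 bases in the controls to 459 and 456 bases in the Foxh1 MO libraries, so the mix of its 4 transcript models was estimated differently. With the effective length as an offset the log2 fold change was 0.95. The gene anapc10, for the substrate-binding subunit, had a log2 fold change of 0.43 and anapc5 of 0.41, neither called. The ring finger subunit gene anapc11 read 14.7, 19.98, 17.01 and 20.6 CPM, and the cullin-like partner anapc2 31.2, 40.00, 31.3 and 22.1 CPM, both with overlapping groups.

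Cdc20 was not called and overlapped between the groups, at 473, 461, 451 and 507 CPM (log2 fold change 0.04, 95% interval -0.25 to 0.33). The phosphatase gene cdc14b, a relative of the yeast mitotic exit phosphatase, stood at 239 and 241 CPM in the controls and at 163 and 157 CPM in the Foxh1 MO libraries. The groups lay well apart, and the log2 fold change of -0.58 (SE 0.13, edgeR adjusted p = 0.0174) changed little without any library (-0.61 to -0.57), although the call was lost without either control library (adjusted p up to 0.127). Its relative cdc14a read 2.93, 2.78, 2.48 and 2.53 CPM. In the RefSeq gene order cdc14b lies beside habp4, which also fell (log2 fold change -0.67, edgeR adjusted p = 0.0373). That call of habp4 was lost without control MO 1 (-0.40, adjusted p = 0.321) and without Foxh1 MO 2 (-0.71, adjusted p = 0.0522).

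**Figure D3:**
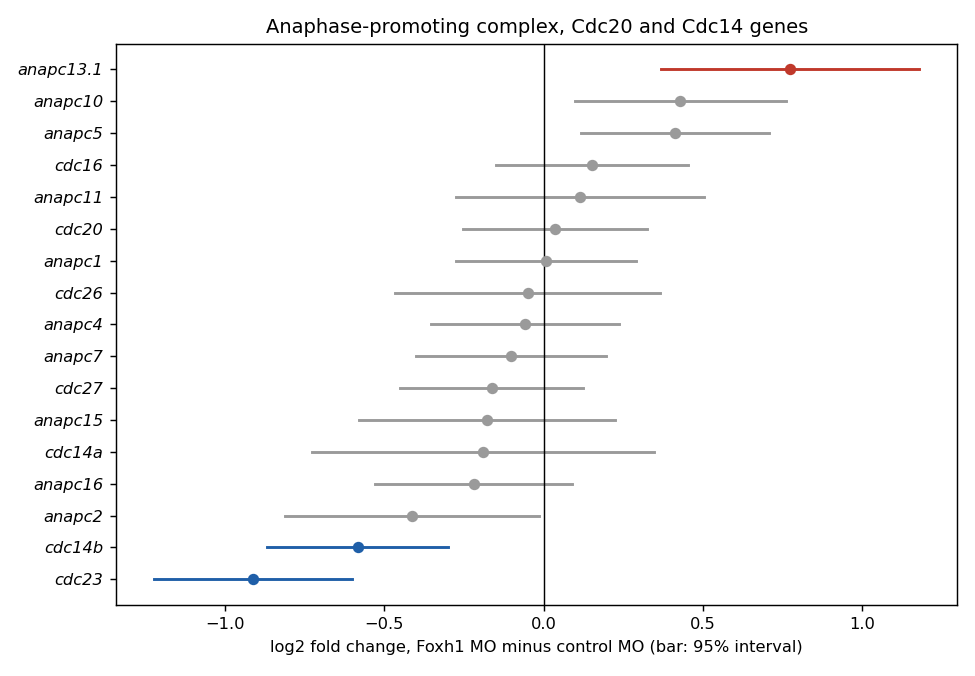
Log2 fold change (Foxh1 MO minus control MO) of the 17 tested genes of the anaphase-promoting complex, its activator cdc20 and the Cdc14 phosphatases, with bars for the 95% interval from the edgeR fit to 2 libraries per group. Blue marks the called falls of cdc23 (-0.91) and cdc14b (-0.58), red the called rise of anapc13.1 (0.77), and grey the 14 genes not called.

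Condensin and cohesin transcripts were abundant and gave 1 call. Of 13 tested genes, 1 fell, 0 rose and 12 did not pass, a share called of 7.69% beside 8.24% of all tested genes. The cohesin core genes smc1a (625, 629, 588 and 615 CPM) and smc3 (556, 591, 509 and 460 CPM) had log2 fold changes of -0.06 and -0.24. The condensin I subunits ncaph (167, 164, 168 and 172 CPM) and ncapg (230, 244, 240 and 245 CPM) were not called. Their partner ncapd2 read 169 and 186 CPM in the controls and 287 and 222 CPM in the Foxh1 MO libraries, and its log2 fold change of 0.52 (SE 0.15) was not called (edgeR adjusted p = 0.0559). Without Foxh1 MO 2 it was 0.69 and was called, and without Foxh1 MO 1 it was 0.32. The gene called lower was smc1b, the cohesin subunit of meiosis in mammals, with 14 and 65 counts in control MO 1 and 2 and 4 and 7 counts in Foxh1 MO 1 and 2. These are 0.446, 2.29, 0.146 and 0.264 CPM, so the transcript is close to the limit of detection and its fall (log2 fold change -2.70, SE 0.73, edgeR adjusted p = 0.0406) rests on control MO 2. Without that library the log2 fold change was -1.11 with an adjusted p of 0.574.

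Mitotic kinesins held 3 of the 4 rises. Of 12 tested, 3 rose, 0 fell and 9 did not pass. The share called was 25%, beside 8.24% of all tested genes, and the median log2 fold change was 0.23. This set was chosen with earlier results of these data known, and kif2a, a relative of kif2c, was placed outside it. Without Foxh1 MO 1, 5 rose and 1 fell, without Foxh1 MO 2, 2 rose, and without either control library 1 rose, kif4a. The chromokinesin kif4a, which organises the spindle midzone and chromosome arms, read 209 and 205 CPM in the controls against 416 and 439 CPM with the Foxh1 MO. The means were 207 ± 2.75 and 427 ± 15.6 CPM (SD, n = 2), 2.06-fold higher (log2 fold change 1.05, SE 0.13, edgeR adjusted p = 0.00061), with replicates far closer to each other than the groups, and it held its call without each library in turn (0.998 to 1.08). In TPM, kif4a went from 109 and 98.5 to 199 and 218. In the RefSeq table its span overlaps an unnamed gene that was not among the tested genes, and the part of that overlap in the rise was not tested.

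The kinesin gene kif2c, a depolymerase that corrects wrong attachments at centromeres, read 35.6 and 36.1 CPM in the controls and 51.6 and 61.0 CPM in the Foxh1 MO libraries (log2 fold change 0.65, SE 0.14, edgeR adjusted p = 0.0153). With Foxh1 MO 1 left out it was still called, and with any of the other libraries left out it was not (adjusted p up to 0.0585). The cytokinesis kinesin gene kif14 stood at 158 and 142 CPM in the controls and at 213 and 237 CPM in the Foxh1 MO libraries (log2 fold change 0.58, SE 0.14, adjusted p = 0.0222 by edgeR), and was not called without either control library (adjusted p up to 0.239). Its relative kif14l read 37.2, 35.1, 43.7 and 49.5 CPM, a log2 fold change of 0.37 that was not called. Reads that fit both kif14 copies may have been split between them.

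Other mitotic kinesins were not called. The midzone motor gene kif23 read 275 and 286 CPM in the controls and 349 and 362 CPM in the Foxh1 MO libraries (log2 fold change 0.34, edgeR adjusted p = 0.139), and kif18a, which dampens chromosome movement, 72.3, 67.0, 86.6 and 90.7 CPM (log2 fold change 0.35, not called). The spindle bipolarity motor gene kif11 (65.0, 60.4, 59.6 and 56.5 CPM), kif20a (357, 343, 315 and 300 CPM) and the chromokinesin gene kif22 (251, 276, 312 and 230 CPM) had log2 fold changes of -0.11, -0.19 and 0.04. Summed over the 12 mitotic kinesins, the level was 1898 and 1836 CPM in the controls and 2248 and 2235 CPM in the Foxh1 MO libraries. Without kif4a the sums were 1689, 1631, 1831 and 1797 CPM, and these still hold the called rises of kif14 and kif2c. Kif20a is the neighbour of cdc23 in the RefSeq order, and thus a gene not called beside one that fell.

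**Figure D4:**
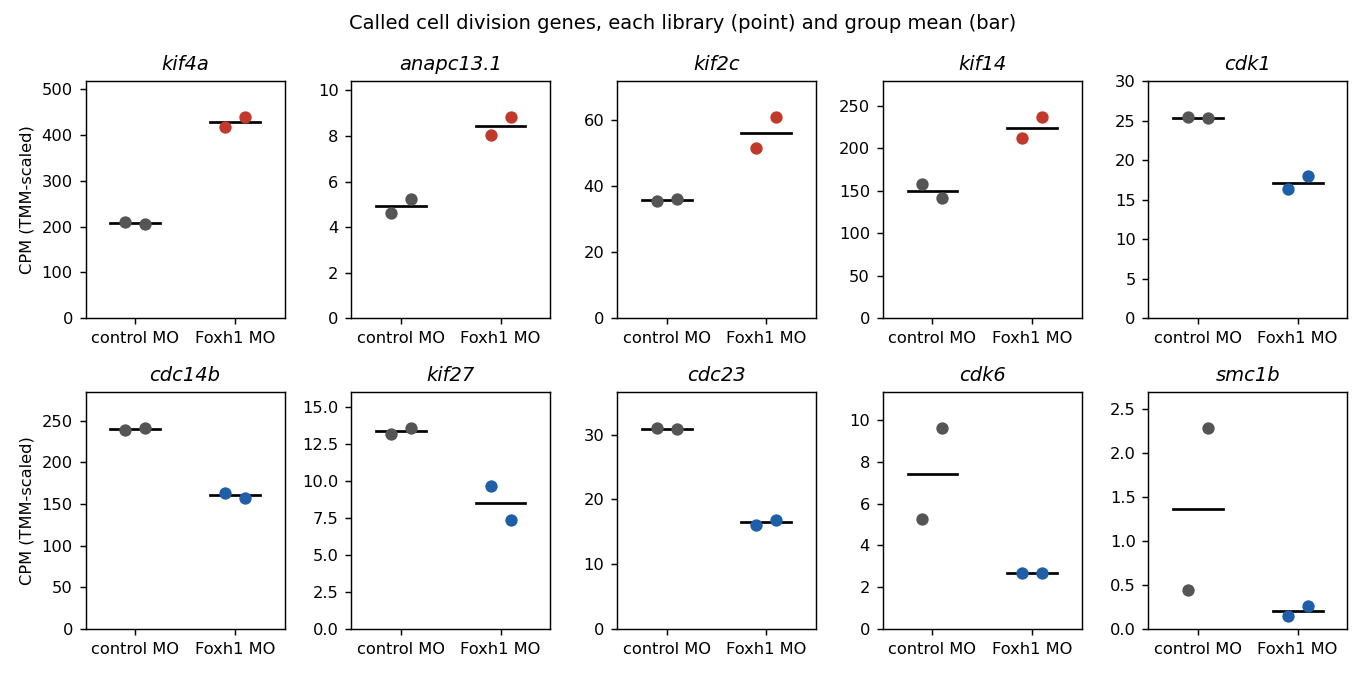
CPM of the 10 called cell division genes in each of 4 libraries (points, axes from 0) with the mean of each group of 2 (bars), control MO in grey and Foxh1 MO in red for rises or blue for falls. Replicates lie close for kif4a and cdc23, and the control values lie far apart for cdk6 and smc1b.

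Kinesins outside the mitotic set gave 1 call, a fall, among 21 tested (4.76%, beside 8.24% of all tested genes), and a median log2 fold change of -0.00253. Kif27, which belongs to a family that works in cilia and Hedgehog signalling, stood at 13.2 and 13.6 CPM in the controls and at 9.64 and 7.35 CPM in the Foxh1 MO libraries (log2 fold change -0.65, SE 0.18, edgeR adjusted p = 0.04). Leaving out control MO 2 or Foxh1 MO 2 ended the call (adjusted p up to 0.23). Markers of multiciliated cells summed to 194 and 196 TPM in the controls and 145 and 142 TPM in the Foxh1 MO libraries. Most of that sum was rfx2 (138, 132, 101 and 112 TPM in the same order), which was not called. Of 5 tested, 1 fell, foxj1 (41.8 and 52.1 CPM in the controls, 29.1 and 17.8 CPM in the Foxh1 MO libraries, edgeR adjusted p = 0.0105). Only ccno among those tested had a positive log2 fold change (0.20, not called), and the regulator mcidas was near 0 (0.03 to 0.08 TPM). The part of these markers in the fall of kif27 was not tested. Kif7, a relative of kif27, read 20.7, 18.7, 23.8 and 21.3 CPM (log2 fold change 0.20, not called). The motor genes of ciliary transport kif3a (23.97, 22.5, 28.9 and 27.2 CPM) and kif3b (50.9, 57.5, 50.04 and 29.0 CPM) were not called, and the log2 fold change of -0.46 for kif3b was -0.12 without Foxh1 MO 2 and -0.90, called, without Foxh1 MO 1. Groups overlapped for kif5b, the main conventional kinesin, at 173, 164, 172 and 166 CPM, and for kif21a at 253, 229, 248 and 233 CPM. They did not overlap for the transport kinesins kif13a (37.9, 39.5, 56.5 and 48.0 CPM), kif1b (15.7, 16.9, 20.7 and 21.3 CPM) and kif1c (44.7, 52.9, 42.2 and 31.4 CPM), with log2 fold changes of 0.43, 0.37 and -0.41 that were not called. Without Foxh1 MO 2 kif13a was called, at 0.54, and without Foxh1 MO 1 kif1c was called, at -0.64, against -0.22 without Foxh1 MO 2. The depolymerase gene kif2a, a relative of kif2c, read 96.1, 98.6, 100.3 and 89.0 CPM (log2 fold change -0.04), and kif24, a kinesin of centrioles, 224, 224, 199 and 154 CPM (log2 fold change -0.34, not called). Without Foxh1 MO 1 the value for kif24 was -0.54 and was called, and without Foxh1 MO 2 it was -0.18.

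**Figure D5:**
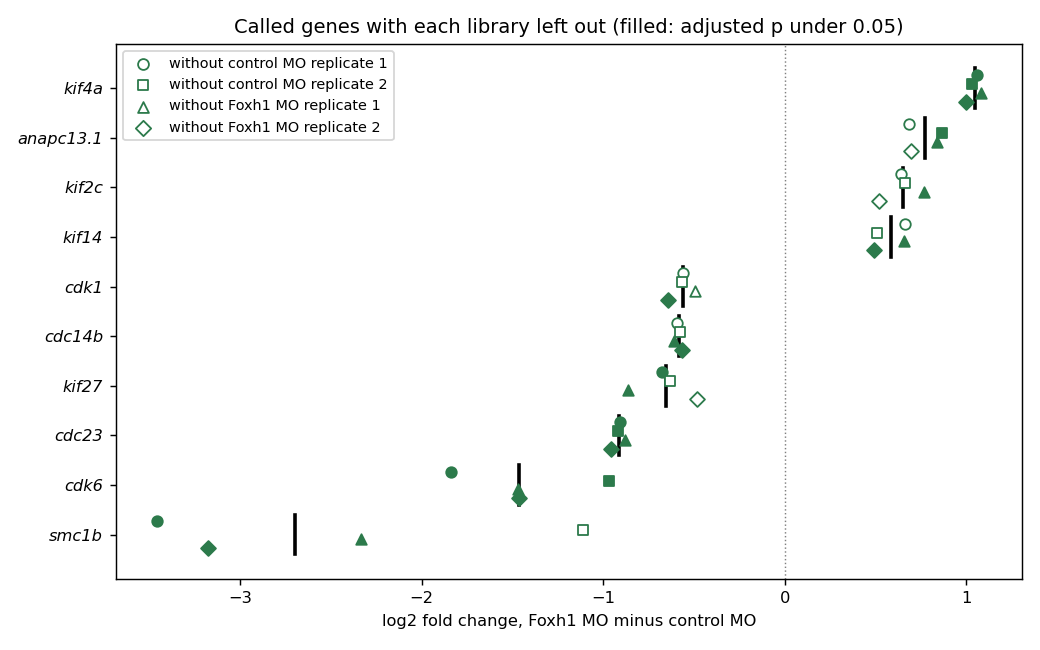
Log2 fold change (Foxh1 MO minus control MO) of the 10 called cell division genes with each of 4 libraries left out in turn (symbols, filled where the adjusted p stayed under 0.05) and with all libraries (black bar). The symbols are filled throughout for kif4a, cdc23 and cdk6, and smc1b spans -3.46 to -1.11.

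Genes of mitosis outside the symbol pattern gave calls in both directions. Of 138 listed, 130 were in the files and 129 were tested, of which 5 rose and 10 fell (11.6%, with a background of 8.24%), and their median log2 fold change was 0.01. Among regulators of Cdk1, 4 of 23 fell and 1 rose. The CDK-activating phosphatase genes cdc25a (84.9, 84.1, 63.7 and 55.1 CPM) and cdc25b (144, 133, 97.4 and 59.1 CPM) fell. Their relative cdc25c was not called, at 119, 116, 109 and 117 CPM (log2 fold change -0.06). Falls were also called for the CDK inhibitor gene cdkn1a (3.25, 6.82, 1.31 and 1.55 CPM) and for ccng2, an atypical cyclin gene (13.8, 11.7, 6.13 and 5.997 CPM). The gene mnat1, for the assembly factor of the CDK-activating kinase, rose (52.4, 48.2, 71.3 and 81.2 CPM). Of 21 kinetochore and checkpoint partners, oip5, needed to load Cenpa, rose (16.99, 16.1, 24.5 and 25.3 CPM) and sgo2, a protector of centromeric cohesin, fell (130, 154, 104 and 70.1 CPM).

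Of 16 cohesin partners pds5b rose, from 80.7 and 72.0 CPM to 184 and 181 CPM (edgeR log2 fold change 1.26 with SE 0.14 and adjusted p = 0.000232). It regulates how cohesin is held on chromatin, and its call held without each library in turn. Of 38 spindle and cytokinesis genes, 2 rose and 3 fell. The augmin subunit gene haus5 rose (104, 120, 220 and 205 CPM), as did the microtubule polymerase gene ckap5 (155, 167, 302 and 201 CPM). The polo-like kinase genes plk2 (25.9, 36.2, 20.8 and 17.5 CPM) and plk3 (64.2, 66.0, 33.0 and 23.1 CPM) and the kinesin light chain gene klc4 (22.9, 26.2, 18.3 and 11.7 CPM) fell. Among 23 transcription factors of the cell cycle, mybl1 (8.70, 14.2, 2.48 and 1.36 CPM) and e2f7, a repressor of the E2F family (256, 259, 150 and 183 CPM), fell. Of 8 activators and inhibitors of the anaphase-promoting complex 0 were called by edgeR. Without each library in turn the 15 calls became 8 to 37, the lowest without control MO 2 and the highest without Foxh1 MO 1. Those of cdc25b, cdkn1a, ccng2, pds5b, haus5, plk3 and mybl1 held each time, and those of cdc25a, mnat1, oip5, sgo2, ckap5, klc4, plk2 and e2f7 were lost in at least 1 case (adjusted p up to 0.283). The log2 fold changes that moved by over 1.5 times were those of cdc25b (-0.82, and -0.52 without Foxh1 MO 2), cdkn1a (-1.81, and -1.18 without control MO 2), ckap5 (0.64, and 0.32 without Foxh1 MO 1), plk2 (-0.70, and -0.43 without control MO 2), sgo2 (-0.70, and -0.45 without Foxh1 MO 2) and klc4 (-0.71, with -1.07 without Foxh1 MO 1 and -0.43 without Foxh1 MO 2).

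Replicates of members lay close. The median absolute log2 difference between the control libraries was 0.12 over members and 0.17 over all tested genes, and between the Foxh1 MO libraries 0.16 and 0.20. The median level of members lay at percentile 76.4 of all tested genes. The authors' deposited table holds the same 116 members, and 10 have a false discovery rate under 0.05 there, 4 with positive and 6 with negative fold changes, where 9.04% of its 13758 genes pass. Of these 10, 9 were also called here. Transcript length in the files, which moves when the mix of transcript models changes, differed by more than 2% between groups for 4 of the 116 members, and of the called genes anapc13.1 was among them. Of the 20 gene neighbours of the called members 13 were tested and 2 were called, where 8.24% of all tested genes were called. They were habp4, with the same sign as cdc14b, and rhobtb1, beside cdk1, with the opposite sign (log2 fold change 0.77, edgeR adjusted p = 0.0246). The call of rhobtb1 was lost without control MO 2 (0.63, adjusted p = 0.0716) and without Foxh1 MO 1 (0.51, adjusted p = 0.0668).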

How the data were processed

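Animal cap RNA of 2 control MO and 2 Foxh1 MO libraries was compared. Per the file headers the authors' RSEM tables hold an expected count, a TPM, an FPKM and a length per gene, and the submitters' processing notes name R 4.1.2, edgeR 3.36.0, RSEM 1.3.3 and STAR 2.7.3a. Build and strand setting are not given in the sources used here, so overlapping genes cannot be separated by strand. FPKM values deposited were not used in any comparison. The authors' table holds log2 fold changes, an F score, p-values and false discovery rates, per the file headers.

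Rounded expected counts went into edgeR 4.0.16 under R 4.3.3 (filterByExpr, minimum count 10 and total 15, TMM, quasi-likelihood F test, no covariate, 2 residual and 10.5 prior degrees of freedom), which left 13756 of 28850 genes. CPM is scaled by TMM. TPM serves for levels. The SE is the absolute log2 fold change divided by the square root of F, and 95% intervals use the same degrees of freedom. The procedure was run on counts simulated with the spread fitted to these libraries, with 200 genes changed 2-fold. Such a run cannot show whether that spread was estimated well. RefSeq (UCB_Xtro_10.0) served for gene order, overlap and type only. No column of other samples was present (0).

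The members and lists were chosen with earlier results of these data known. Named genes were all called members, the 2 of highest TPM and the 1 of largest change (at least 5 CPM) not called per role, the 5 of highest TPM, and called genes of 6 companion lists, 49 in all. Others were named after their values were seen. Alternatives were DESeq2 1.42.0, limma-voom (limma 3.58.1), other scaling, filters, a length offset, the replicate number as a block and each library left out.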

Additional observations from a re-analysis of the deposited data

How the results depend on the processing

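None of the 25 called members and companion genes changed sign under any of the 11 settings. Of the 10 called members, 9 were called by DESeq2, limma-voom, the filter of 1 CPM in 2 libraries, the length offset and the replicate block, and 10 with upper-quartile factors or no filter. The call missed was kif27 by DESeq2 and smc1b by limma-voom and the length offset, and smc1b was not tested under the 1 CPM filter. With no filter 7 members were called higher and 9 lower (13.1% of 122 members, 7.81% of 20537 genes, many of them low). With upper-quartile factors it was 5 and 9 (12.1% of members and 10.7% of all genes). Leaving out 1 library gave 2 to 12 members higher, 2 to 13 lower, 8 to 37 companion genes and 807 to 2356 of all genes.

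Among the named genes, signs turned for 7 members near 0 and not called, when 1 library was left out, and the cause was not tested. With 1 library left out, the log2 fold change of cenpa ranged from -0.22 to 0.026, of spc25 from -0.0651 to 0.17, of cdc20 from -0.0601 to 0.12, of anapc11 from -0.0898 to 0.35, of kif22 from -0.19 to 0.24, of kif2a from -0.13 to 0.0352 and of ccne2 from -0.0028 to 0.18.

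Samples of the same number did not deviate together (correlation across genes -0.08, for members -0.04), so the number is not taken as a pairing. With the replicate block 4 members were higher and 6 lower, with cdk1 no longer called (adjusted p = 0.0517) and tpx2 called (adjusted p = 0.04996), 15 companion genes and 1245 of all genes. Of the 10 called members 9 were shared. The control libraries of smc1b, at 14 and 65 counts, differed widely at near-equal depth. The planned description of promoter motifs was not run.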
